A study of Mus musculus with 5 samples.

Results

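Forkhead factors are transcription factors that bind DNA through a winged-helix domain, and several of them mark the mesenchyme that cranial neural crest cells form in the face. The group described here holds 8 of them, Foxc1, Foxc2, Foxd1, Foxd2, Foxf1, Foxf2, Foxp1 and Foxp2, chosen by gene symbol from the 23441 rows of the count table. All 8 were found, 1 row each; Foxf1a, the older symbol of Foxf1, has no row of its own. All 8 also passed the filter on low counts that left 12710 genes for testing. The libraries hold poly(A) RNA of the mandible, taken from mouse embryos at E10.5. The 2 dCKO libraries come from Wnt1Cre; Yapf/f, Tazf/f embryos on a C57BL/6J x CBA/J; 129SvEv background, and the 3 control libraries from Yapf/f, Tazf/f embryos on 129SvEv. The floxed Yap and Taz alleles are shared by both groups, so the groups differ in Wnt1Cre, a driver active in the premigratory neural crest, and in strain background, and the effects of these cannot be told apart. Cells of the arch that do not descend from the neural crest (epithelium, core mesoderm, endothelium and blood) keep both genes in this design. The labels do not say whether a library is 1 embryo or a pool, so p-values cover the spread between these libraries, which may in part be technical.

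In the mouse face, Sonic hedgehog from the arch epithelium acts on the underlying neural crest cells, and Foxc2, Foxd1, Foxd2, Foxf1 and Foxf2 are known to depend on that signal there. Foxc1 and Foxc2 are close relatives with overlapping roles in the mesenchyme of the skull, meninges and eye and in blood vessels. Foxp1 and Foxp2 belong to a separate branch of the family, bind DNA as dimers and act mainly as repressors. YAP and TAZ do not bind DNA themselves and work through TEAD factors.

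Total counts were 11346480 and 13298973 in the dCKO libraries and 6491137 to 7439419 in the controls, and the 8 forkhead genes together took 0.0197% to 0.0256% of them in dCKO and 0.0273% to 0.0372% in control libraries. Yap1 and Wwtr1, the gene of Taz, lay below all 3 controls in both dCKO libraries (log2 fold changes −1.33, SE 0.16, and −1.31, SE 0.20). Embryonic globin transcripts (Hbb-bh1, Hbb-y, Hba-x) made up 7.43% and 5.30% of counts in the dCKO libraries, against 0.441%, 0.355% and 0.335% in the controls, and the widest 95% Wilson interval, which covers counting error only, was 7.41% to 7.45%. The neural crest mesenchyme list was detected in full in both groups, 16 of 16 genes, with summed levels of 2456 to 2512 CPM in dCKO and 2424 to 2698 CPM in control libraries. Of the 7 mandibular identity genes, 3 fell (edgeR), Dlx6, Gsc and Dlx5 (log2 fold changes −0.76, −1.44 and −0.44), against 1.42% of all tested genes. In both dCKO libraries 4 of the 7 lay below all controls, as did 18.6% of all tested genes. The median of the 7 was −0.44, and their sums were 759.1 to 871 CPM in dCKO and 897.2 to 970.3 CPM in control libraries. Hand1, a marker of the distal arch, was at 70.0 and 83.9 CPM in the dCKO libraries, against 87.8 and 91.5 CPM in control replicates 1 and 2 and 5.49 CPM in control replicate 3. Both groups thus hold markers of mandibular mesenchyme, with several mandibular identity genes at a lower level in dCKO tissue and control replicate 3 apart in Hand1. Some genes of tissue beside the mandibular mesenchyme also differed. Hoxa2, a gene of the second arch, had 44 and 41 counts in the dCKO libraries and 1, 0 and 0 in the controls. Hoxb2, from the same list of second and posterior arch genes, overlapped and was not called. It had 25 and 29 counts in the dCKO libraries and 6, 24 and 1 in the controls. Hoxa3, Hoxb3 and Hoxd3 had too few counts to be tested. The crest and glial gene Sox10 had 59 and 22 counts against 0 in all 3 controls. The part of such tissue in the results below was not tested.

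Of the 8 forkhead genes, 3 fell in dCKO tissue, Foxc1, Foxd1 and Foxp1, and 0 rose. Levels are CPM, read counts set to a common library size, after TMM scaling, and a gene was called where edgeR's quasi-likelihood test gave a Benjamini-Hochberg adjusted p below 0.05 over all tested genes. Over all 12710 genes the same rule called 1.42% lower and 5.0% higher (180 and 636 genes, against 472 and 531 with library totals as the only scaling). The lower calls over all genes moved widely when 1 library was left out, between 39 without dCKO replicate 1 and 687 without control replicate 3. In 4 of the 8, the 3 named genes and Foxp2, every dCKO library lay below every control library, as it did in 18.6% of all genes. The reverse order was found in 0 of the 8 and in 19.0% of all genes. An unadjusted p below 0.05 was reached by these 4 members and by 2738 of all genes tested. The median log2 fold change was −0.26 over the 8 members and 0.00 (−0.000618) over all genes.

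RefSeq promoters (GRCm38.p6, 250 bases before to 50 after a start site) were found for 5 of the 8 genes, and those of the 3 genes that fell are shown because these are the members whose levels differed. The promoter of Foxc1 lies at chr13:31806396-31806695 on the plus strand, and that of Foxd1 at chr13:98353995-98354294 on the plus strand. The one shown of 3 for Foxp1, the only one of these with a motif match, lies at chr6:99520944-99521243 on the minus strand. Each is printed 5′ to 3′ along its gene. Capitals mark a match to the TEAD core motif GGAATG on either strand.
Foxc1: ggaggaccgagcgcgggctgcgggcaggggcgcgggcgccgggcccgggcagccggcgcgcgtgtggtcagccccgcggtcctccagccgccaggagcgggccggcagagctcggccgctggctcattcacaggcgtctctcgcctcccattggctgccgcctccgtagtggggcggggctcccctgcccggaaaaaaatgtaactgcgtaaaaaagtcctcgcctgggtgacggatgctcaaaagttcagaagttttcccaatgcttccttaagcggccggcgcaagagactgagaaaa
Foxd1: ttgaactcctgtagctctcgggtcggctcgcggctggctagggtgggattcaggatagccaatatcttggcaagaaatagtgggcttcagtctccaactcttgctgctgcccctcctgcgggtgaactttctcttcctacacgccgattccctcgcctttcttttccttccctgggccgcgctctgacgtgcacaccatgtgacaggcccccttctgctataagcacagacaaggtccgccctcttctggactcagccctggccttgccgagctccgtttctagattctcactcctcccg
Foxp1: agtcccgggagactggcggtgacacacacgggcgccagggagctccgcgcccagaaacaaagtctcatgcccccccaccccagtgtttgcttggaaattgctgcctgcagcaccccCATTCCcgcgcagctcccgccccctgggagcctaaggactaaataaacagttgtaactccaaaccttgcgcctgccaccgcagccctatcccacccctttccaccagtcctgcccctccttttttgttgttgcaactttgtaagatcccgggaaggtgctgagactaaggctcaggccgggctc
The Foxp1 sequence holds the only match, CATTCC, beginning at position −134 from its start site, and the windows of Foxc1, Foxd1, Foxd2 and Foxf2 and both other Foxp1 windows hold none. GGAATG occurs on either strand in 14.7% of the 32851 RefSeq promoters of this length. The forkhead motif TGTTTAC and the GLI motif TGGGTGGTC (GLI factors are the effectors of Hedgehog signalling) were in none of the 7 windows, against 3.65% and 0.253% of all promoters. The Foxc1 window is 67.3% G and C and the Foxd1 window 57.7%, and the median of all promoters is 52.7%.

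Foxc1, which in the mouse is needed for the skull vault, the meninges and the front of the eye, changed most. It measured 10.5 and 14.8 CPM in the dCKO libraries, against 28.7, 39.0 and 40.4 CPM in the controls, from 114 and 193 counts and from 219, 289 and 265 counts. The groups were well apart, and the raw count was lower in both dCKO libraries although these were sequenced more deeply. The means were 12.6 ± 3.0 CPM (SD, n = 2) in dCKO and 36.1 ± 6.39 CPM (SD, n = 3) in control tissue, a log2 fold change of −1.503 (SE 0.20, 95% interval −1.93 to −1.08, edgeR adjusted p = 4.12e-05). The call held in 15 of 15 alternative settings, with log2 fold changes from −1.77 to −1.28. In the authors' deposited table the fold was 0.358 with an adjusted p of 2.65e-05, and Foxc1 was the only member of the 8 below 0.05 there.

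Foxc2, the closest relative of Foxc1, did not follow it. It measured 18.6 and 24.1 CPM in the dCKO libraries and 14.2, 22.4 and 24.3 CPM in the controls, so that the groups overlapped fully. The log2 fold change was 0.08 (95% interval −0.37 to 0.53, edgeR adjusted p = 0.87), an interval that does not reach that of Foxc1. Its sign turned after correction for GC content (−0.19), without dCKO replicate 2 (−0.11) and without control replicate 1 (−0.12). Because both genes are read from the same library, their ratio needs no scaling between libraries. Foxc1 had 0.565 and 0.613 counts per Foxc2 count in the dCKO libraries, against 2.02, 1.74 and 1.66 in the controls. Foxc1 thus had fewer reads than Foxc2 in both dCKO libraries and more in all 3 controls. The mean log2 ratio was −0.76 ± 0.08 (SD, n = 2) in dCKO and 0.85 ± 0.15 (SD, n = 3) in control tissue, a difference of −1.61. The exact two-sided permutation test gave p = 0.2, the smallest that 2 against 3 libraries allow, and 0.4 after adjustment over the 4 pairs of paralogues compared.

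**Figure D1:**
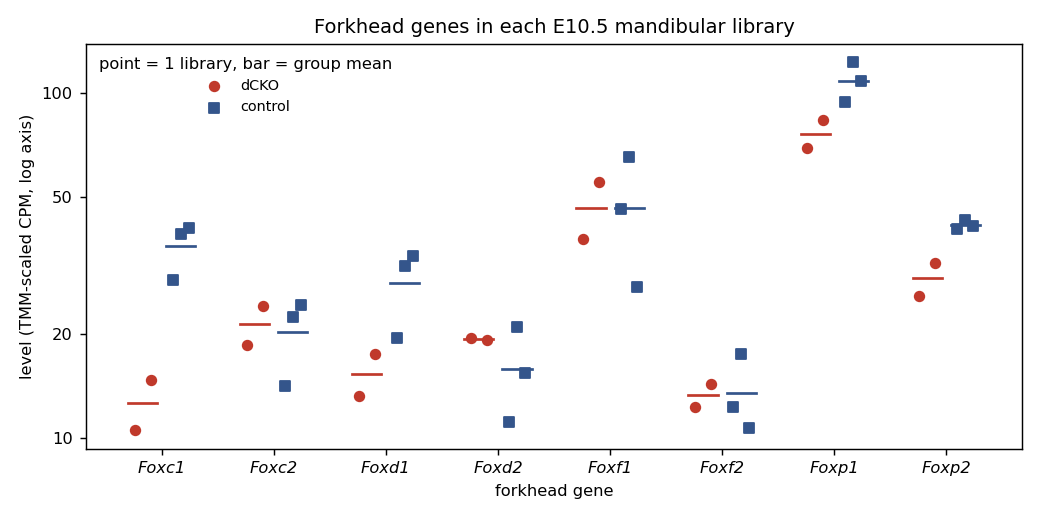
Level of each forkhead gene (TMM-scaled CPM, log axis) in the 2 dCKO libraries (red circles, left of each gene) and the 3 control libraries (blue squares, right), with a bar at each group's mean. The groups are apart for Foxc1, Foxd1, Foxp1 and Foxp2 and overlap for Foxc2, Foxd2, Foxf1 and Foxf2.

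Foxd1, known for its roles in the kidney stroma and the optic chiasm and present in the facial mesenchyme, was the second member to fall. It measured 13.2 and 17.5 CPM in the dCKO libraries, against 19.4, 31.5 and 33.6 CPM in the controls. Control replicate 1 lay close above the higher dCKO library, and the other controls far above it. The log2 fold change was −0.87 (SE 0.22, 95% interval −1.33 to −0.40, edgeR adjusted p = 0.0224). The call was lost without dCKO replicate 1 (−0.67, edgeR adjusted p = 0.285) and without control replicate 3 (−0.73, 0.0557), and the authors' deposited table gives an adjusted p of 0.42. Foxd2, its relative from the same class, measured 19.5 and 19.3 CPM in the dCKO libraries and 11.2, 20.9 and 15.4 CPM in the controls. Both dCKO values fell inside the range of the controls, with a log2 fold change of 0.29 (95% interval −0.18 to 0.76, edgeR adjusted p = 0.476), which was −0.000107 with the GC trend removed. Foxd1 had 0.678 and 0.909 counts per Foxd2 count in the dCKO libraries, against 1.74, 1.5 and 2.17 in the controls, without overlap. The mean log2 ratio differed by −1.18 (dCKO minus control, exact permutation p = 0.2, the smallest possible).

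Foxf1 and Foxf2 are markers of mesenchyme next to epithelium, and loss of Foxf2 in the mouse gives a cleft palate. Foxf1 measured 37.6 and 55.3 CPM in the dCKO libraries and 46.2, 65.0 and 27.5 CPM in the controls, and its control libraries differed by 2.37-fold, the widest spread of the 8 genes. Its log2 fold change was 0.01 (95% interval −0.49 to 0.50, edgeR adjusted p = 0.992). Foxf2 measured 12.3 and 14.4 CPM in the dCKO libraries and 12.3, 17.6 and 10.7 CPM in the controls, with a log2 fold change of −0.02 (95% interval −0.50 to 0.46, edgeR adjusted p = 0.969). Both genes were lowest in control replicate 3, the library with the low Hand1 level, and highest in control replicate 2. Without control replicate 3 the log2 fold change of Foxf1 was −0.26 (edgeR adjusted p = 0.389). The ratio of Foxf1 to Foxf2 counts was 3.05 and 3.84 in the dCKO libraries and 3.73, 3.69 and 2.56 in the controls, and the log2 difference was 0.06 (exact permutation p = 0.8). A change of up to about 0.5 on the log2 scale in either gene lies inside these intervals.

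Foxp1 and Foxp2 were the most alike of the 8. Foxp1, which acts in heart and blood cell development, measured 69.1 and 83.1 CPM in the dCKO libraries, against 94.2, 122.4 and 108 CPM in the controls, a log2 fold change of −0.51 (SE 0.14, 95% interval −0.79 to −0.22, edgeR adjusted p = 0.0296). Foxp2, known for its role in the circuits of vocal learning, measured 25.8 and 32.2 CPM in the dCKO libraries, against 40.3, 42.8 and 41.2 CPM in the controls, a log2 fold change of −0.51 (SE 0.15, 95% interval −0.83 to −0.19) that did not pass (edgeR adjusted p = 0.0526). The groups did not overlap in either gene, and the 2 genes fall on both sides of the threshold with the same fold change. Their log2 profiles over the 5 libraries differed by 0.07 on average, the smallest difference among the 28 pairs of members. The ratio of Foxp1 to Foxp2 counts was 2.67 and 2.58 in the dCKO libraries and 2.34, 2.86 and 2.62 in the controls (log2 difference 0.02, exact permutation p = 1). Foxp1 lost its call with the GC trend removed (log2 fold change −0.39, edgeR adjusted p = 0.0984), and without dCKO replicate 1, dCKO replicate 2 or control replicate 2 (up to 0.363). Foxp2 passed in 6 of its 15 alternatives. Foxp4, the third broadly expressed gene of the class and the most abundant forkhead gene in CPM here, measured 285.5 ± 23.5 CPM in dCKO (SD, n = 2) and 284.6 ± 49.2 CPM in control tissue (SD, n = 3), with a log2 fold change of 0.01 (95% interval −0.28 to 0.29).

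**Figure D2:**
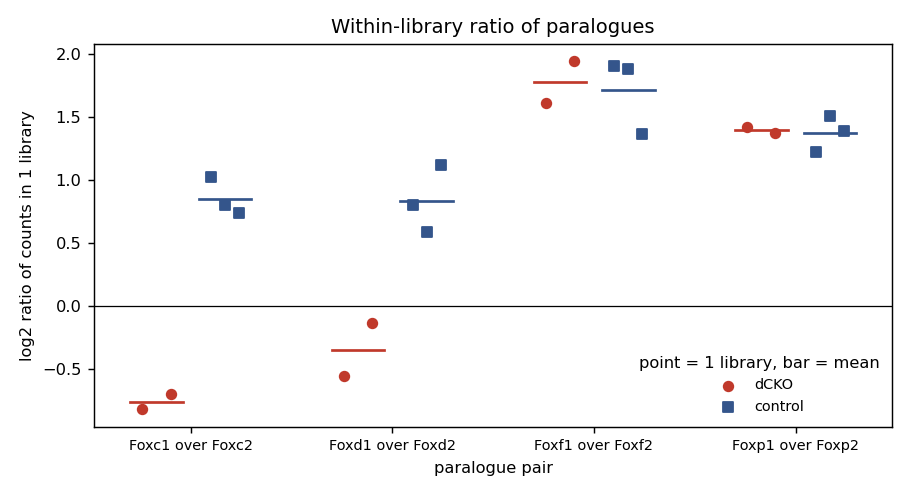
Log2 ratio of the counts of 2 paralogues within 1 library, for the dCKO libraries (red circles) and the control libraries (blue squares), with a bar at each mean; at 0 both genes have equal counts. The Foxc1 and Foxd1 ratios lie below 0 in both dCKO libraries and above 0 in all 3 controls, and the Foxf and Foxp ratios overlap between groups.

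Per kilobase of the longest annotated transcript (GENCODE M21), a level that can be set between genes, the order differed between the groups. In dCKO tissue the order from high to low was Foxf1 (19.2 ± 5.19 CPM per kilobase), Foxp1 (10.6 ± 1.38), Foxc2 (7.84 ± 1.41), Foxd2 (7.47 ± 0.06), Foxf2 (5.64 ± 0.63), Foxp2 (4.29 ± 0.66), Foxd1 (3.03 ± 0.60) and Foxc1 (2.16 ± 0.51; all SD, n = 2). In control tissue it was Foxf1 (19.1 ± 7.77), Foxp1 (15.1 ± 1.96), Foxc2 (7.44 ± 1.97), Foxc1 (6.17 ± 1.09), Foxp2 (6.13 ± 0.19), Foxd2 (6.11 ± 1.89), Foxf2 (5.72 ± 1.52) and Foxd1 (5.56 ± 1.51; all SD, n = 3). In the control order the intervals of 1 SD overlapped between neighbours from Foxc2 down to Foxd1 and between Foxf1 and Foxp1. In dCKO tissue the intervals of 1 SD overlapped for Foxp1 and Foxc2, Foxc2 and Foxd2, Foxp2 and Foxd1, and Foxd1 and Foxc1, and lay apart for the other neighbours. Foxc1 was the lowest of the 8 in dCKO tissue, whereas in control tissue 3 genes lay above it and 4 below. Transcript length is an estimate, since Foxp1 and Foxp2 have many annotated isoforms.

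**Figure D3:**
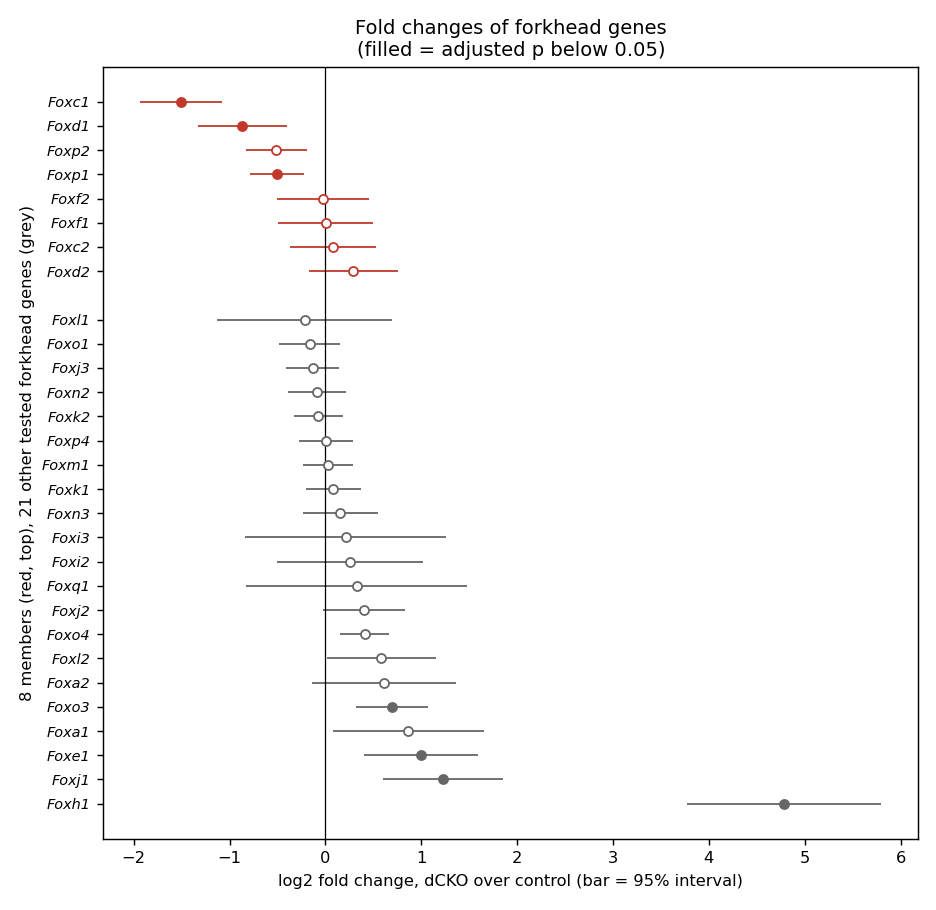
Log2 fold change (dCKO over control) with its 95% interval for the 8 forkhead genes of the cranial mesenchyme (red, top) and the 21 other forkhead genes tested (grey), filled where edgeR's adjusted p was below 0.05. The 3 filled red points lie left of 0 and the 4 filled grey points right of it.

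The 8 genes were set beside the rest of the family, the 36 other genes whose symbol is Fox with a class letter and a number, of which 21 were tested. Of these 21, 4 rose and 0 fell (edgeR, 1.42% of all genes lower and 5.0% higher), with a median log2 fold change of 0.26. limma-voom called the same 4 genes, and DESeq2 also called 4, with Foxo4 (adjusted p = 0.048) in place of Foxe1 (0.0541). All 7 of the 21 with an unadjusted p below 0.05 had positive fold changes. Foxh1, which acts with SMAD proteins in early embryonic patterning, had 76 and 118 counts in the dCKO libraries and 1, 3 and 2 counts in the controls (log2 fold change 4.79, SE 0.48, edgeR adjusted p = 8.56e-07), a fold that rests on 6 control reads. Foxj1, the regulator of motile cilia, measured 8.58 and 9.10 CPM in the dCKO libraries, against 2.89, 3.78 and 4.73 CPM in the controls (log2 fold change 1.23, SE 0.30). Foxo3, a stress-response factor that is also active in red cell precursors, measured 25.1 and 34.95 CPM in the dCKO libraries, against 17.7, 18.1 and 19.99 CPM in the controls (0.695, SE 0.18). Foxe1, a gene of the thyroid and oral epithelium, measured 11.2 and 9.87 CPM in the dCKO libraries, against 3.54, 6.75 and 5.49 CPM in the controls (0.998, SE 0.28). Foxh1 kept its call in all 14 alternatives in which it was tested, whereas Foxj1, Foxo3 and Foxe1 kept theirs in 11, 11 and 8 of 15. With the GC trend removed, without dCKO replicate 2 and without control replicate 1, Foxh1 alone stayed called, and without dCKO replicate 1 there were 2 calls. After Foxp4, the most abundant other forkhead genes were Foxk2, Foxm1, Foxo4 and Foxk1, with log2 fold changes of −0.08, 0.02, 0.41 and 0.08, none of them called (edgeR adjusted p of 0.0536 for Foxo4 and 0.766 or more for the others). Foxo4 was called higher in 5 of 15 alternatives, with adjusted p-values of 0.0168 to 0.048 there.

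The rising genes of the family stood beside higher levels of some markers of other cell types, where edgeR called 5.0% of all genes higher. Of 9 tested erythroid genes 9 rose (median log2 fold change 4.02), with summed levels of 79740 and 55530 CPM in the dCKO libraries and 3404 to 4413 CPM in the controls. Of 14 epithelial genes 3 rose, the keratins Krt19, Krt8 and Krt18 (log2 fold changes 0.91, 0.67 and 0.50), and the sum of the list was 676.4 to 710.3 CPM in dCKO and 458.8 to 581.6 CPM in control libraries. Of 14 endothelial genes, Egfl7 and Cldn5 rose (0.57 and 0.64), with sums of 384.7 to 429.7 CPM in dCKO and 341.1 to 370.5 CPM in control libraries. The median of the endothelial list was 0.17, and Tek (−0.14), Emcn (−0.12), Erg (−0.07) and Pecam1 (−0.02) had negative log2 fold changes. Of 8 tested arch core mesoderm genes edgeR called 0, with 3 at an unadjusted p below 0.05 (2738 of all 12710 genes). Their median log2 fold change was 0.72. In 4 of the 8 every dCKO library lay above every control (19.0% of all genes), and in 0 below. The sums were 115.5 to 134.2 CPM in dCKO and 88.6 to 101.8 CPM in control libraries. Of the 12 neural and glial genes 5 were tested and 1, Sox10, rose, and the sums were 48.9 to 50.7 CPM in dCKO and 33.1 to 44.2 CPM in control libraries. Tubb3 had 161 and 222 counts in the dCKO libraries and 68, 57 and 100 in the controls (log2 fold change 0.59, SE 0.25, edgeR adjusted p = 0.177), while Six3, Pax6 and Sox1 had at most 2 counts in any library. Among the 16 neural crest mesenchyme genes, whose median log2 fold change was −0.02, Alx4 rose (0.48) and Prrx1 fell (−0.42). Scaling the libraries on those 16 genes left Foxc1 at −1.55, Foxd1 at −0.91 and Foxp1 at −0.56, all called, and Foxp2 at −0.56 was then called as well. Whether fewer cells with a transcript or less transcript per cell lie behind a lower level cannot be told apart in bulk tissue, and the part of cell type shares in these results was not tested.

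Of the genes next to Foxc1, Foxd1 and Foxp1 on their chromosomes, those that could be tested were not called. By RefSeq order of coding genes on mouse chromosome 13, Foxf2 is the next gene to Foxc1 on one side, with Foxq1 beyond it, and Gmds is next on the other. Only Foxc1 was called there: Foxf2 stood at −0.02, Foxq1 at 0.33 (1.75 and 1.07 CPM in the dCKO libraries and 0.919 to 1.35 CPM in the controls) and Gmds at −0.42 (SE 0.20, edgeR adjusted p = 0.248). On chromosome 8, Foxf1, Mthfsd, Foxc2 and Foxl1 follow each other, with log2 fold changes of 0.01, 0.16, 0.08 and −0.22, and 0 of the 4 was called by edgeR, none having an unadjusted p below 0.05. The non-coding gene Fendrr, known in the mouse as the neighbour of Foxf1, measured 5.17 and 3.90 CPM in the dCKO libraries and 2.49, 5.13 and 1.22 CPM in the controls, lowest in control replicate 3 like Foxf1. For Foxd1 and Foxp1, 1 adjacent gene each was tested, Btf3 (−0.16) and Eif4e3 (−0.24), and neither was called, whereas the other adjacent genes, Tmem174 and Gm765, had at most 1 count in any library and were not tested. In GENCODE M21, which need not be the annotation the counts were made with, 0 genes of the count table overlap an exon of the 8.

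The Hedgehog pathway acts upstream of several of the 8 genes. Of 14 listed genes 13 were tested, and edgeR, DESeq2 and limma-voom called 0, against 816 of all 12710 genes by edgeR. Gas1 and Ptch1, 2 of the 13, had an unadjusted p below 0.05, as had 2738 of all genes, and both counts are near that background. Smo, the pathway's signal transducer and the most abundant of the list, measured 306 and 307 CPM in the dCKO libraries and 301, 281.4 and 360.1 CPM in the controls. The targets Ptch1 and Gli1, whose levels report the activity of the pathway, measured 132.8 and 150.6 CPM in dCKO against 118, 124.1 and 113.2 CPM in control libraries, and 69.4 and 69.1 CPM in dCKO against 61.1, 88.5 and 64.2 CPM in control libraries. Ptch1 was thus higher in both dCKO libraries without passing the test (log2 fold change 0.26, SE 0.12, edgeR adjusted p = 0.221), and Gli1 overlapped (−0.04, SE 0.15). Gas1, a co-receptor, measured 140.3 and 154.9 CPM in dCKO against 178.1, 164.7 and 274.9 CPM in control libraries (−0.48, SE 0.17, edgeR adjusted p = 0.106). It was called lower with no filter on low counts, with the GC trend removed and without control replicate 2. Disp1 is listed at 0 counts in all 5 libraries.

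Genes known from mouse work to act downstream of Foxc or Foxf factors moved in both directions. Of 12 listed genes 11 were tested, of which 1 rose and 1 fell (background 5.0% and 1.42%), with a median log2 fold change of 0.15. Cxcl12, a chemokine that Foxc1 maintains in the stroma of mouse bone marrow, measured 103.9 and 94.6 CPM in the dCKO libraries, against 130.7, 180.3 and 175.9 CPM in the controls (log2 fold change −0.71, SE 0.14, edgeR adjusted p = 0.00347), a call lost without dCKO replicate 2 (−0.638, edgeR adjusted p = 0.0561). Itgb3 is an integrin that Foxc factors activate in mouse endothelium and that platelets carry in quantity. It measured 36.3 and 75.6 CPM in the dCKO libraries, against 5.25, 7.16 and 7.02 CPM in the controls (3.12, SE 0.26, edgeR adjusted p = 3.85e-08). The globin share was also higher in the dCKO libraries than in the controls. Within dCKO the order was the reverse, with 7.43% globin in replicate 1 and 5.30% in replicate 2. The source of the Itgb3 rise was not tested. Tbx1, which Foxc factors act on in the mouse head mesoderm, measured 19.8 and 15.3 CPM in the dCKO libraries and 11.8, 6.48 and 13.4 CPM in the controls and did not pass (0.73, SE 0.25, edgeR adjusted p = 0.0945). Msx2 and Bmp4 had log2 fold changes of −0.19 and 0.10 and were not called.

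**Figure D4:**
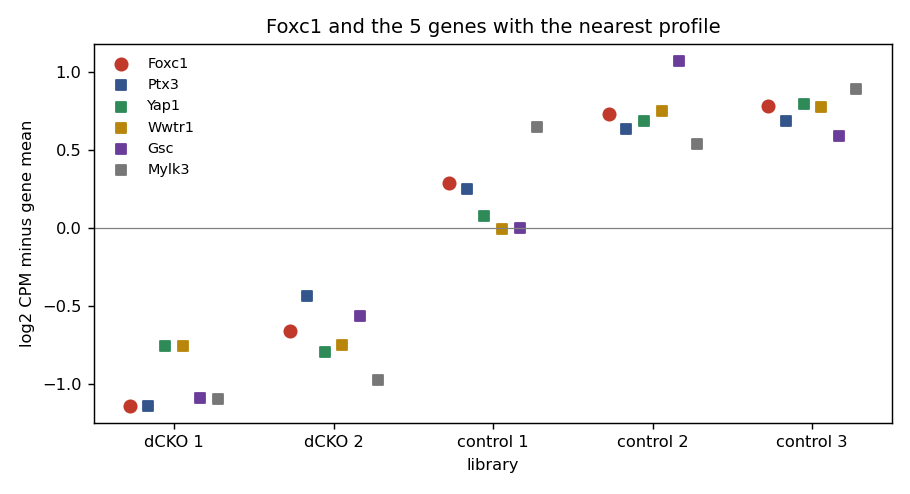
Log2 CPM in each library minus the gene's mean over the 5 libraries, for Foxc1 (large circles) and the 5 genes with the nearest profile (squares), dCKO libraries on the left. All 6 genes are below their mean in both dCKO libraries, and control replicate 1 is the lowest control for Foxc1, Ptx3, Yap1, Wwtr1 and Gsc.

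The targeted genes were among those nearest to Foxc1 in their profile over the libraries. Among the 10745 tested genes averaging at least 5 CPM, likeness to Foxc1 was measured as the mean absolute difference of the centred log2 CPM profiles over the 5 libraries. The nearest genes were Ptx3 (0.09), Yap1 (0.16), Wwtr1 (0.16), Gsc (0.19) and Mylk3 (0.20), all called lower. Control replicate 1 held the lowest control level of Foxc1 (28.7 CPM), of Yap1 (311.4 CPM) and of Wwtr1 (38.3 CPM). It was also the lowest control for Foxc2 (14.2 CPM), Foxd1 (19.4 CPM), Foxd2 (11.2 CPM), Foxp1 and Foxp2, though not for Foxf1 and Foxf2. This trait of the controls is thus not particular to Foxc1, and Foxc2 and Foxd2 share it without being called. Among the dCKO libraries Foxc1 differed (10.5 and 14.8 CPM) where Yap1 was level (174.4 and 169.7 CPM). Nearest to Foxd1 were Pkdcc and S1pr3, both called lower, with differences of 0.13 each, followed by Arsb, Gm14322 and Jakmip2, which were not called. Nearest to Foxp1 were Sorbs2, B4galt6, Cers6, Ebf1 and Ppih (0.03 to 0.06), none called (edgeR adjusted p of 0.0863 to 0.228). These distances describe 5 libraries in 2 groups, so that any gene with a like difference between the groups comes near.

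**Figure D5:**
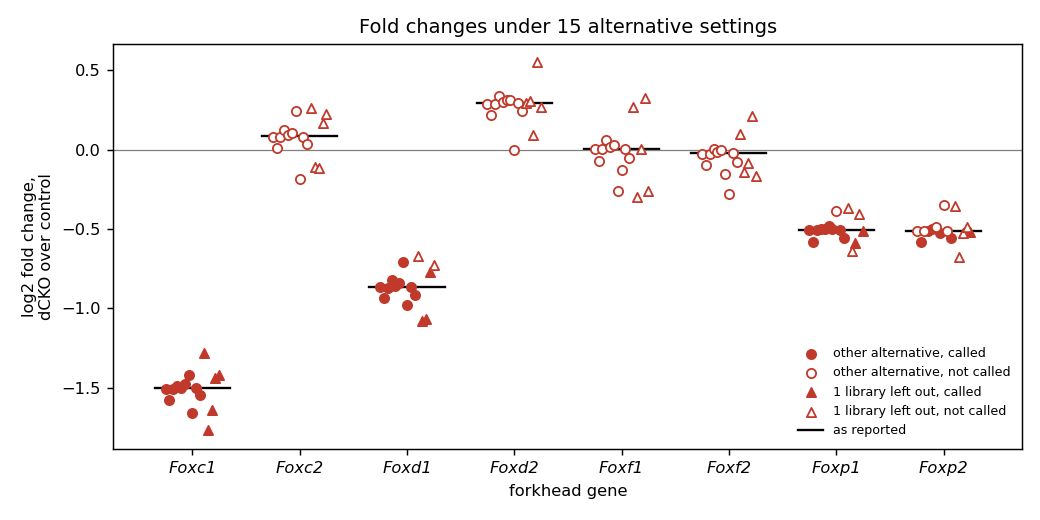
Log2 fold change (dCKO over control) of each forkhead gene as reported (black line) and under 15 alternatives, 5 of them leaving out 1 library (triangles) and 10 others (circles), filled where the adjusted p was below 0.05. Foxc1 is filled throughout, Foxd1 in 13, Foxp1 in 11 and Foxp2 in 6, and the other 4 genes scatter around 0 with none filled, Foxd2 mostly above it.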

How the data were processed

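The authors deposited raw counts of reads for each gene symbol in 5 libraries (whole numbers). A second deposited table holds their comparison and, per the file headers, gives mean normalized counts (a signal) for all, wild type and dCKO libraries, their fold change as a ratio, its log2 value, and p-values with adjusted p-values. The submitters' processing notes name HTSeq 0.5.4p3, DESeq 1.16.0 and mm9; the aligner, annotation, counting mode and use of strand were not given in the sources used here. Count columns headed WT were matched to the control samples by replicate number. Counts were analysed with edgeR 4.0.16 in R 4.3.3: filterByExpr defaults (minimum count 10, minimum total 15), TMM scaling, and the two-sided glmQLFTest after glmQLFit, with p-values adjusted by Benjamini-Hochberg over all 12710 tested genes and a threshold of 0.05. Standard errors were taken as the size of the log2 fold change divided by the root of F. Fold changes are dCKO over control. Libraries of a group were not duplicates (chi-square of 4.34 to 14.6 per gene between them). Paralogue ratios used counts with 0.5 added. Likeness used log2 CPM with a prior count of 2. The code was tested on simulated data.

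Alternatives were RLE scaling, library totals alone, DESeq2 1.42.0, limma-voom (limma 3.58.1), no filter beyond 1 count, a stricter filter (a mean of 5 CPM, with 1 CPM in at least 2 libraries), leaving out single libraries, the replicate number as a block, removal of each library's GC trend (longest GENCODE M21 transcript), erythroid genes left out of the scaling and, chosen after seeing the data, scaling on the neural crest mesenchyme list. The members and lists were chosen with earlier results of these data known. Named are the 8 members, other forkhead genes that were called or are the 5 most abundant, called genes and the most abundant gene of the Hedgehog and downstream lists, the 5 nearest profiles of each called member, called markers (up to 4 per list) and Yap1 and Wwtr1; further genes of these lists and the neighbouring genes were named after their values were seen. A few listed genes are not reported here. GRCm38 sequences served only for promoters, length, GC content and gene order.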

Additional observations from a re-analysis of the deposited data

How the results depend on the processing

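Foxc1 fell in every setting tried, and the direction was kept in 107 of the 120 combinations of member and setting. The 13 reversals were in genes that were never called. With the GC trend removed the log2 fold changes of Foxc2, Foxd2 and Foxf1 were −0.186, −0.000107 and −0.126, and those of Foxp4, Foxm1 and Foxk1 −0.285, −0.101 and −0.0747. Library totals alone gave −0.0695 for Foxf1, −0.0684 for Foxp4 and −0.05 for Foxm1, with the median of all genes shifted by −0.0755. Neural crest mesenchyme scaling gave −0.055, −0.0399 and −0.0217 for these. limma-voom gave 0.00163 for Foxf2. Leaving out 1 library at a time gave log2 fold changes from −0.119 to 0.263 (Foxc2), −0.299 to 0.327 (Foxf1), −0.169 to 0.209 (Foxf2), −0.122 to 0.105 (Foxp4), −0.0514 to 0.0955 (Foxm1) and −0.0399 to 0.213 (Foxk1), and log2 ratio differences from −0.116 to 0.227 (Foxf1 over Foxf2) and −0.0587 to 0.0859 (Foxp1 over Foxp2). The last was −0.0255 with the GC trend removed. Those for Foxc1 over Foxc2 and Foxd1 over Foxd2 were −1.67 to −1.53 and −1.39 to −0.972. Without single libraries 1 to 3 members were called, 1 without dCKO replicate 1 (Foxc1), and 442 to 1637 of all genes, 1637 without control replicate 3. Of all genes, lower calls numbered 472 of 1003 with library totals alone and 305 of 1156 with no filter, against 180 of 816; leaving out 1 library gave 39 to 687.

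With the replicate block 2121 genes were called (921 lower, 1200 higher), 4 of them members (Foxp2 being added), while Foxf1 was at −0.264, Foxk2 at 0.00155 and the Foxf1 over Foxf2 difference at −0.116. The numbers share no stated origin, and same-numbered libraries did not deviate together (correlations of deviations 0.0836 and −0.00424 across genes). The causes of these changes were not tested. With 2 dCKO libraries, changes of up to 0.458 on the log2 scale in either direction lie inside the intervals of Foxf1 and Foxf2.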
